A study of Homo sapiens with 16 samples.

Results

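The translation initiation and elongation factors of U937 cells were followed on 16 arrays after induction of the AML1-ETO fusion protein. The members were all probe sets whose platform annotation gave exactly 1 gene symbol starting with EIF1, EIF2, EIF3, EIF4, EIF5, EIF6 or EEF, apart from the eIF2 kinases. There were 54 such probe sets for 42 genes, of 12626 probe sets in all. Another 8 probe sets joined a factor's symbol with that of a further gene and were not members. U937 is a human monocytic leukaemia line, and the cells carried an AML1-ETO construct under a tetracycline-controlled promoter, in controls as well as in induced cells. AML1-ETO is the fusion of RUNX1 with RUNX1T1 made by t(8;21). Induced cells were sampled at 12, 24, 48 and 72 h. Control cells were sampled at 0, 24, 48 and 72 h, and each of the 8 groups has 2 arrays. Control samples of 12 h are mentioned in the labels and were not analysed here. The labels name neither the agent that switched the construct nor the number of clones, and no label says that the 2 arrays of a group came from separate cultures, so p-values measure a spread that may be technical.

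Translation begins when eIF2 brings the initiator tRNA to the small ribosomal subunit, where eIF1, eIF1A, eIF3 and eIF5 help to find the start codon. The mRNA is loaded through its cap by eIF4E, the scaffold eIF4G and the helicase eIF4A, and the eIF4E-binding proteins compete with eIF4G for eIF4E until mTORC1 phosphorylates them. The eEF1 and eEF2 factors then carry aminoacyl-tRNA to the ribosome and move it along the mRNA. Many of these genes are expressed in every growing cell.

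Values are the deposited linear intensities, and log2 differences are induced minus control after values under 135.61 were set to that floor. Calls are those with an adjusted p under 0.05 in limma, with Benjamini-Hochberg adjustment over all 7824 probe sets tested. Of the 54 members, 52 probe sets for 40 genes passed the filter on low values. The other two were those of EIF2B1, which read below 0 on all 16 arrays, and EIF1AY. A floored value occurred in only 3 tested members, EIF2A, EIF3J and 1 probe set of EEF1A2, so the fold changes of the others are not bounds. The arrays had been scaled to 1 mean, so a change in total RNA per cell would not show, and in such bulk samples fewer cells of a type and less RNA per cell cannot be told apart. Array medians lay between 220.3 and 337.5, and replicate arrays correlated at r = 0.912 to 0.955 on the log2 scale. The RUNX1T1 probe set 35641_g_at, which checks the labels, read 8649.6 and 3974 in induced cells at 48 h. At 72 h it read 10603 and 8355 in induced cells, and its control arrays of all hours read at most 91.4. At 24 h its induced arrays read 1592 and -47.5, so by this probe set the fusion transcript was seen on 1 of the pair. The other RUNX1T1 probe sets did not pass the filter on low values and showed no such rise. They read at most 206.8 in induced and at most 351.5 in control cells, both by 35638_at. The check of the labels thus rests on 1 probe set. Of 6 monocytic and myeloid markers with a probe set, CD4, LYZ and MPO had a median above the floor, and CD68, ITGAM and CD14 did not. Above the floor were also 2 of 4 lymphoid markers (CD3E and CD79A), 1 of 2 erythroid (ALAS2) and 2 of 5 epithelial and fibroblast markers (CDH1 and COL1A1). The summed intensity of the myeloid markers spanned 8257 to 24422 in induced and 6687 to 18032 in control arrays, and their part in the results below was not tested.

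Averaged over 24, 48 and 72 h, 9 of the 52 members fell and 2 rose. That is 21.2% of the members, against 31.9% of all probe sets tested, of which 13.4% fell and 18.5% rose. The members' median difference was log2 -0.20, while that of all tested probe sets was log2 0.10. After quantile normalization these medians were log2 -0.19 and 0.01. The members were brighter, with a median of the mean intensities of 4366.5, against 949.9 for all tested probe sets. The part of intensity in this comparison and in those at each hour was not tested. The genes that fell were EIF4EBP1, EIF2S1, EIF5, EIF3K, EIF3B, EIF2S3, EIF5B, EIF3M and EIF3D, and those that rose were EIF4E2 and EIF1. Of these 11 probe sets, 8 had effects of 1 sign at all 3 hours. The split between falls and rises depended on scaling, because centring each array on its median gave 19 lower and 2 higher members, and quantile normalization 11 and 2. With median centring 40.4% of the members were called, against 32.1% of all, so which share is larger also depends on the scaling. Median centring moved the median of all tested probe sets to log2 -0.034, and the share of rises among all calls was 44.8% with it and 58.1% without it.

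At 24 h no member passed the test with limma (0 of 52, against 0% of all probe sets), and 1 had an unadjusted p under 0.05, against 397 of all probe sets. At 48 h, 7 members fell and 1 rose, 15.4% of them, against 19.2% of all probe sets (8.68% lower and 10.5% higher). At 72 h, 11 fell and 2 rose, 25.0%, against 30.01% of all (13.9% lower and 16.1% higher). After median centring the shares at 72 h were 30.8% of the members and 29.6% of all, so no difference from the whole array is read from them. The members' median difference was log2 0.00 at 24 h, -0.30 at 48 h and -0.37 at 72 h, beside 0.04, 0.09 and 0.18 over all tested probe sets. EIF4EBP1, EIF3K, EIF3B, EIF2S1 and EIF1 were called at both hours. All 4 induced arrays of 48 and 72 h lay below all 4 control arrays of those hours for 10 members and above them for 2. These 12 are 23.1% of the members, against 36.6% of all tested probe sets (14.8% lower and 21.8% higher).

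**Figure D1:**
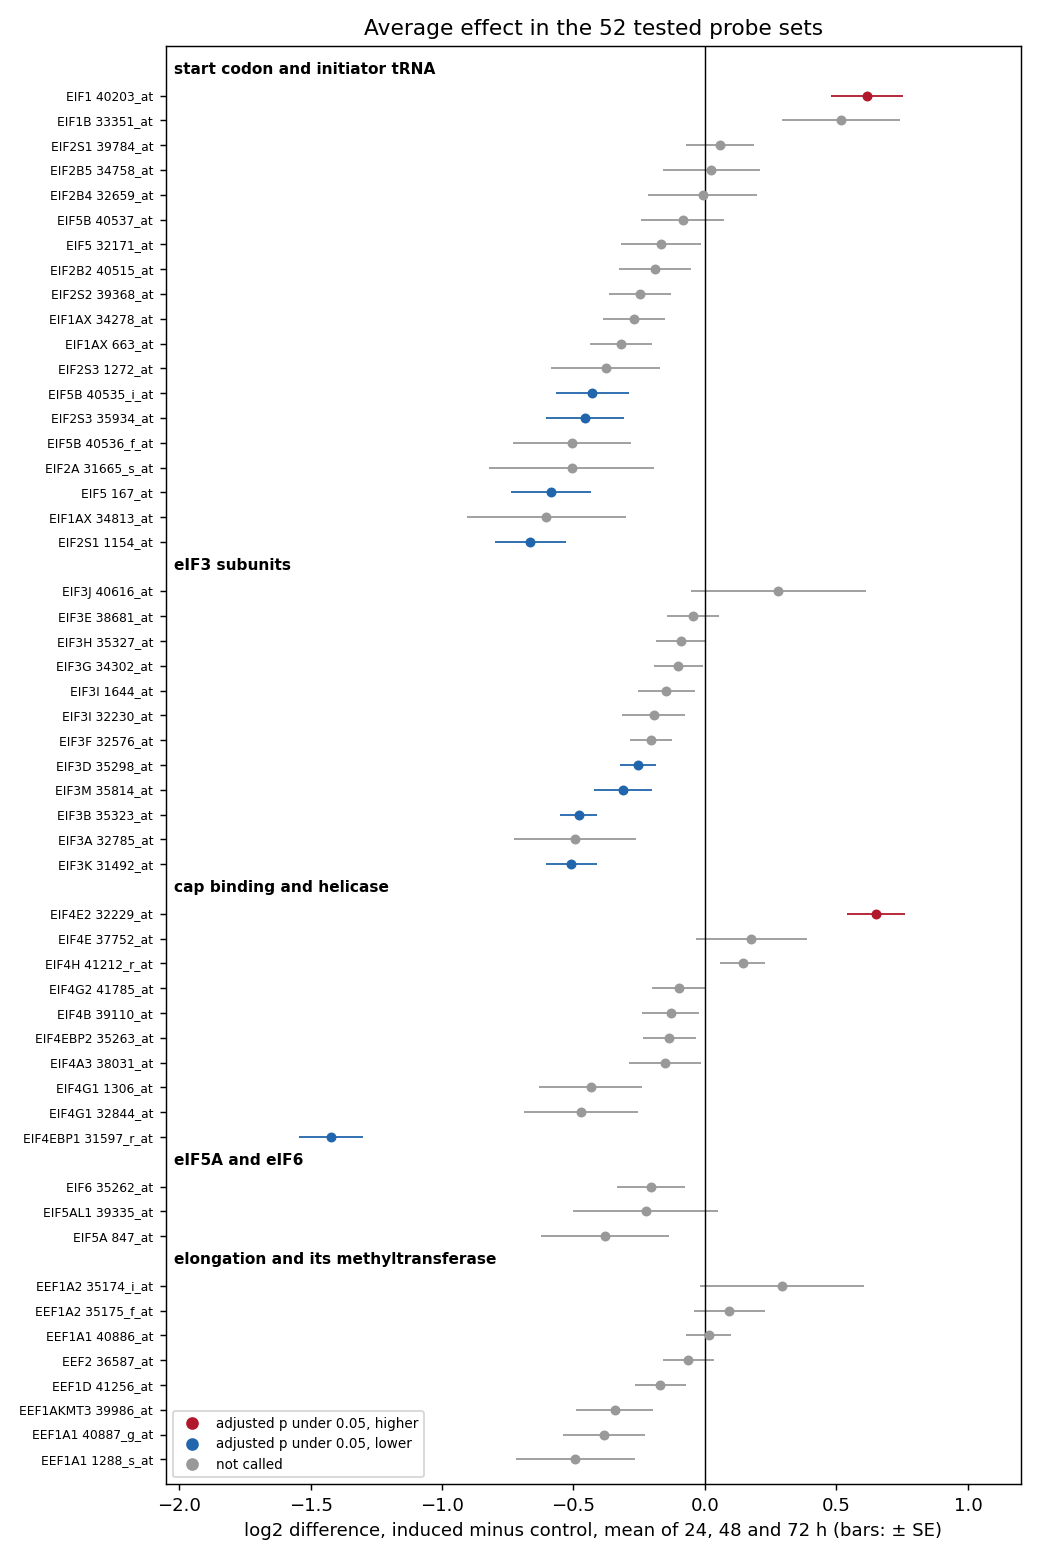
The log2 difference of induced minus control cells, averaged over 24, 48 and 72 h, is plotted with its SE for the 52 tested probe sets, grouped by role. EIF4EBP1 stands lowest at log2 -1.42, and the 2 called rises are EIF4E2 and EIF1.

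Promoter sequences are shown for EIF3K, EIF3B, EIF2S1, EIF4E2 and EIF1, the members with the smallest adjusted p in the average effect among those with an entry in the RefSeq promoter table (GRCh38.p14). Each is the 250 bases before the annotated start, 5′ to 3′, and for EIF4E2 the first of 2 listed starts. Capitals mark matches on either strand to CACGTG (the E-box bound by MYC and its relatives), CCGGAAG (an ETS factor core), CCAAT (bound by NF-Y), TGTGGT (the core bound by RUNX1) and TGATGNAA (an element of the CHOP and ATF4 type).
EIF3K, chr19:38618938-38619187, plus strand: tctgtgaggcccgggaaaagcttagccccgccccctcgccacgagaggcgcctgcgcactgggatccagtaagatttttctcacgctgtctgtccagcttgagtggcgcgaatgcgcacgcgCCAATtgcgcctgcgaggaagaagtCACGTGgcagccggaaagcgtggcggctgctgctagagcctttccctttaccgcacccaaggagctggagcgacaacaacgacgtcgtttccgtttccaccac
EIF3B, chr7:2354577-2354826, plus strand: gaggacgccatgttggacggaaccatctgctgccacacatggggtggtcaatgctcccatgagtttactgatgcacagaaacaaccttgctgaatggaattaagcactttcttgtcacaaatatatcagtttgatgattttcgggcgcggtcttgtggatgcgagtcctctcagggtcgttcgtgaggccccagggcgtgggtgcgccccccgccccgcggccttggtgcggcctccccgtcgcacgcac
EIF2S1, chr14:67360078-67360327, plus strand: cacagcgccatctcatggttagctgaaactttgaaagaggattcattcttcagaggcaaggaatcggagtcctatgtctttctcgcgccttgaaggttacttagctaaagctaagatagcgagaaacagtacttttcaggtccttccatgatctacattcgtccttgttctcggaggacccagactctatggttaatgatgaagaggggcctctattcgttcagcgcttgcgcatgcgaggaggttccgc
EIF4E2, chr2:232550439-232550688, plus strand: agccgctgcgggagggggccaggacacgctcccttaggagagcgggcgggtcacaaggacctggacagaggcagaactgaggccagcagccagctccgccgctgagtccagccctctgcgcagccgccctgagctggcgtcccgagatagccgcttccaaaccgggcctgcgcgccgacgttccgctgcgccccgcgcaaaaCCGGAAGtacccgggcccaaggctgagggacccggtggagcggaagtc
EIF1, chr17:41688635-41688884, plus strand: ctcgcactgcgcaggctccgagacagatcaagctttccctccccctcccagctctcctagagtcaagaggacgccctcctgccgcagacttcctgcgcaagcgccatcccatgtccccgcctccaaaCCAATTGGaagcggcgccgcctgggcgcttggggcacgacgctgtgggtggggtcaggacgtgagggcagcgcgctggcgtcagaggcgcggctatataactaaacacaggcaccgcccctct
The EIF3K sequence held a CACGTG 103 bases before the start and a CCAAT 128 bases before it. The EIF4E2 sequence held a CCGGAAG 48 bases before the start, and the EIF1 sequence a CCAAT on each strand that overlap in the palindrome CCAATTGG. No match to these letters lay in the windows of EIF3B and EIF2S1.

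Promoters were found for 31 of the 40 tested genes, and since some have several annotated starts these are 43 windows of 250 bases. CACGTG occurred in 8 of the 43, 18.6%, against 6.34% of the 35116 promoters in the table. The 8 were those of EIF1B, EIF3F, EIF3K, EIF4A3, EIF4B, EIF4E, EIF4G1 and EIF4H. Of these EIF3K alone was called in the average effect, where 31.9% of all probe sets were called. At single hours EIF3K was called at 48 and 72 h, EIF3F at 72 h and EIF4G1, by 1306_at, at 48 h. The shares of all probe sets called were 19.2% at 48 h and 30.01% at 72 h. CCGGAAG occurred in 16.3% of the members' promoters, against 8.52% of all, and CCAAT in 34.9%, against 32.0%. TGTGGT occurred in 0 of 43, against 11.0% of all, and TGATGNAA in 0 of 43, against 3.14%. A match describes these letters only and is not evidence of binding.

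EIF4EBP1 had the largest change of any member in the average effect. It encodes 4E-BP1, which holds eIF4E away from eIF4G when mTORC1 is inactive. In induced cells it read 11924 and 8183 at 12 h, 10083 and 8599 at 24 h, 4779.6 and 3021 at 48 h and 2560.1 and 2107 at 72 h. In control cells it read 11193 and 11390.4 at 0 h, 11129.6 and 10779 at 24 h, 12749 and 12169 at 48 h and 11741 and 11482 at 72 h. The 4 induced arrays of 48 and 72 h were below every other array, and the 2 of 24 h lay below both controls of their hour. EIF4EBP1 fell 3.28-fold at 48 h (log2 -1.71, SE 0.21, adjusted p = 0.000119) and 5-fold at 72 h (log2 -2.32, SE 0.21, adjusted p = 4.03e-06). At 24 h the difference was log2 -0.23 (adjusted p = 0.996). The effect differed between the hours (F test adjusted p = 0.00159). The calls held without any 1 array of their hour, with log2 values of -2.04 to -1.38 at 48 h and -2.46 to -2.18 at 72 h. The result rests on 1 probe set, whose _r suffix marks relaxed design rules.

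EIF4EBP2, the paralogue with the same role, did not pass the test. It read 5274 and 4459 in induced cells at 72 h, against 4844 and 6215 in control cells (log2 -0.18, SE 0.17, adjusted p = 0.478). At 48 h its difference was log2 -0.22 (adjusted p = 0.441). The groups overlapped at 72 h.

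EIF4E2 encodes 4EHP, a cap-binding protein that does not bind eIF4G and is known for repressing translation. It was the member with the largest called rise. In induced cells it read 3089.6 and 2641 at 12 h, 3420.4 and 3629 at 24 h, 3463 and 3376 at 48 h and 4264 and 3866 at 72 h. In control cells it read 1868 and 1498 at 0 h, 2875 and 2262 at 24 h, 2631 and 2765 at 48 h and 1612 and 2095 at 72 h. Both induced arrays were above both controls at 24, 48 and 72 h. EIF4E2 rose 1.57-fold on average (log2 0.65, SE 0.11, adjusted p = 0.000504) and 2.21-fold at 72 h (log2 1.14, SE 0.19, adjusted p = 0.000493), and both calls held without any 1 array. Its differences were log2 0.47 at 24 h (adjusted p = 0.929) and 0.34 at 48 h (adjusted p = 0.253). EIF4E, the main cap-binding factor, did not pass the test at 24, 48 or 72 h, with log2 0.59 at 48 h (adjusted p = 0.311) and 0.24 at 72 h (adjusted p = 0.652).

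EIF4G1, the scaffold of the cap complex, has a pair of probe sets. By 1306_at it fell 2.22-fold at 48 h (log2 -1.15, SE 0.34, adjusted p = 0.03). Induced cells gave 4203 and 7699.7 at 12 h, 5510.3 and 7847 at 24 h, 2750.4 and 1895 at 48 h and 2608 and 1963 at 72 h. Control cells gave 3991 and 2391 at 0 h, 5235 and 5798 at 24 h, 6235 and 4135 at 48 h and 2532 and 3537 at 72 h. The groups did not overlap at 48 h and overlapped at 24 and 72 h. The other, 32844_at, read 1876 and 1554 in induced cells at 48 h, against 3306 and 3628 in control cells, a difference of log2 -1.02 that missed the threshold (adjusted p = 0.0783). Both thus lay lower in induced cells at that hour without overlap. The call of 1306_at was lost without replicate 2 of the induced arrays (adjusted p = 0.208) and without replicate 1 of the controls (adjusted p = 0.231). At 72 h neither passed (log2 -0.40 and -0.81).

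The other cap and helicase members were not called at 24, 48 or 72 h. EIF4B and EIF4H stimulate the helicase, EIF4G2 is a relative of the scaffold that lacks the eIF4E site, and EIF4A3 is the helicase of the exon junction complex. Their average differences lay between log2 -0.15 for EIF4A3 and 0.14 for EIF4H. The adjusted p-values ranged between 0.223 and 0.508.

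**Figure D2:**
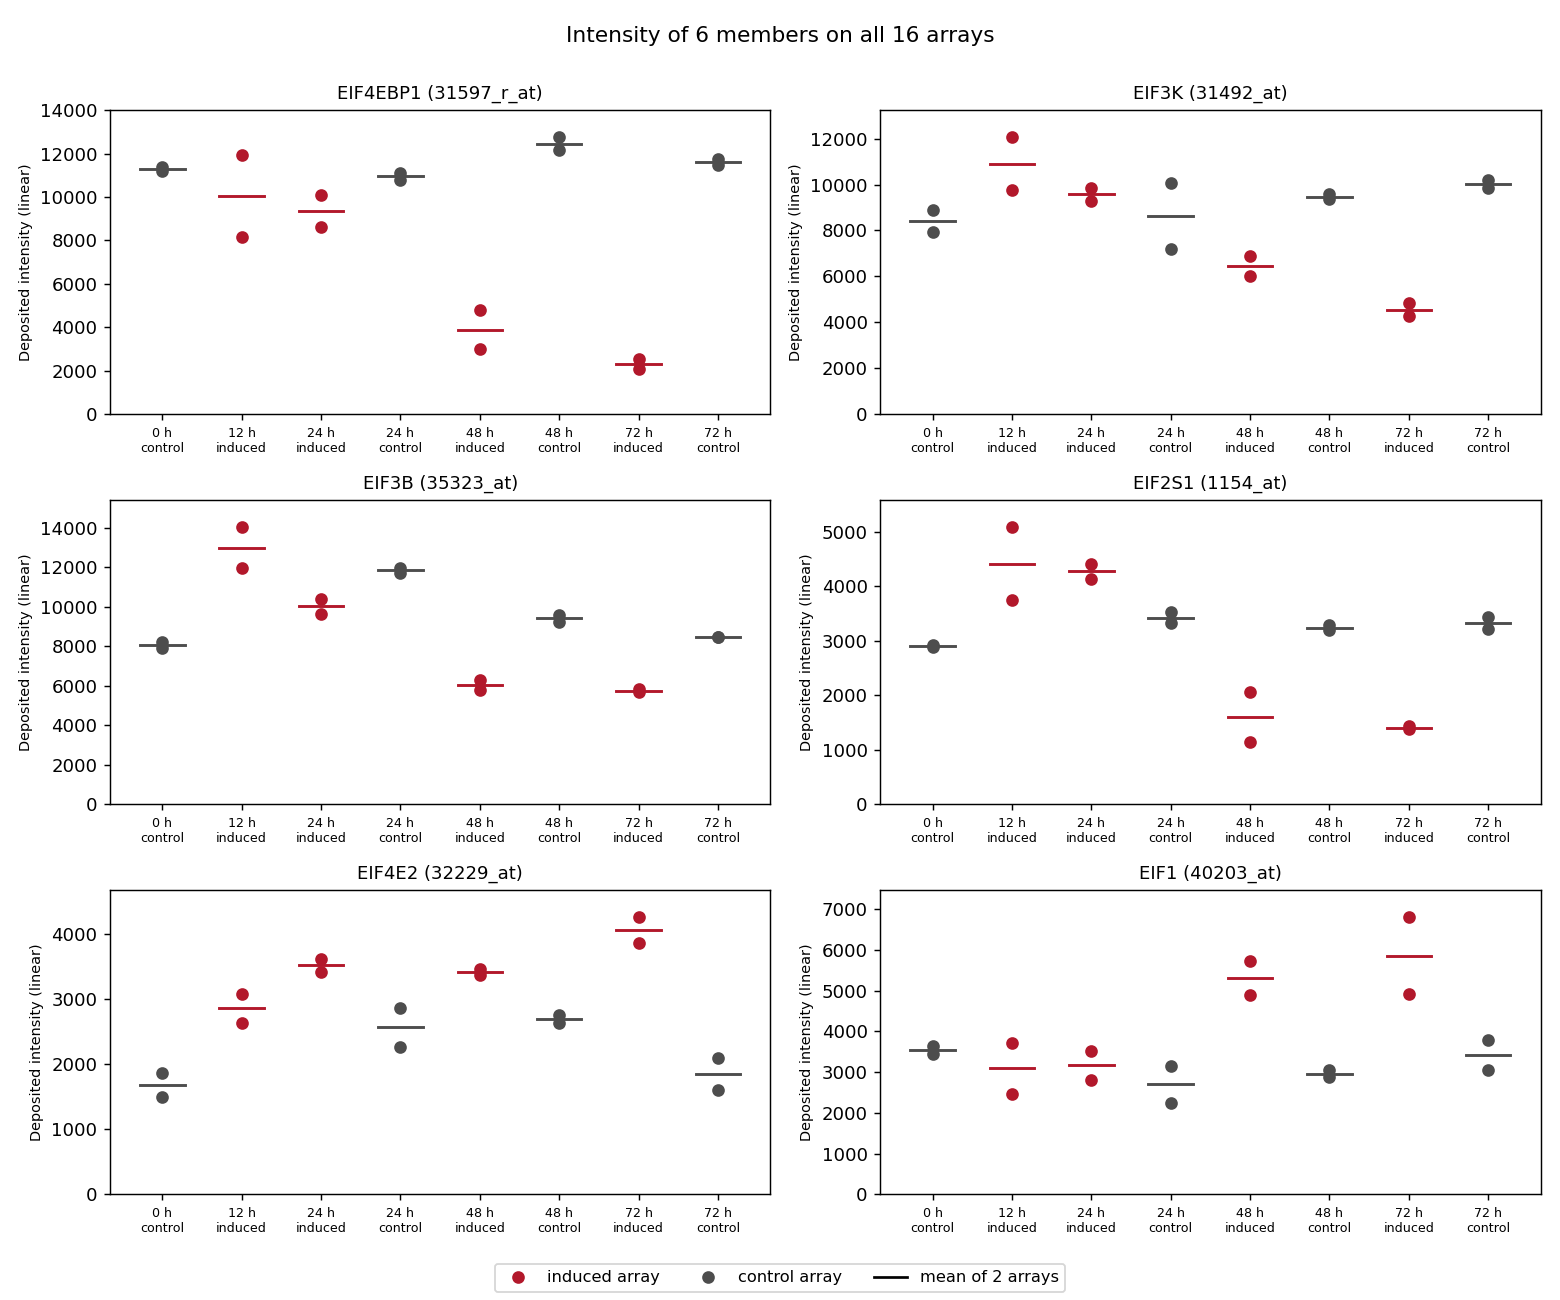
The deposited linear intensity of 6 members is plotted on all 16 arrays by group, with points for arrays and a line at the mean of 2. For EIF4EBP1 and EIF2S1 the induced arrays of 48 and 72 h lie below all others, and for EIF4E2 the induced arrays lie above the controls at 24, 48 and 72 h.

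The eIF3 complex is the scaffold that joins the small ribosomal subunit to the other initiation factors. Of its 12 tested probe sets, for 11 subunits, 6 fell and 0 rose at 72 h, against 13.9% falls and 16.1% rises among all probe sets, and all 12 had a difference below 0, also after quantile normalization and median centring. The 6 called falls became 4 with no filter and 3 without the mean-variance trend. At 48 h, 3 fell, or 1 under either of these settings, and 8 of 12 were below 0, and at 24 h none was called and 4 of 12 were below 0. The median difference of the 12 was log2 0.10 at 24 h, -0.21 at 48 h and -0.51 at 72 h.

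EIF3K is a small subunit of the mammalian complex. The induced arrays read 12053 and 9769.5 at 12 h, 9858 and 9299.7 at 24 h, 6018 and 6890.0 at 48 h and 4857 and 4257 at 72 h. The control arrays read 7941 and 8887 at 0 h, 10055 and 7202 at 24 h, 9583 and 9347 at 48 h and 10193 and 9861 at 72 h. The 4 induced arrays of 48 and 72 h lay below all control arrays of the series. EIF3K fell 2.20-fold at 72 h (log2 -1.14, SE 0.17, adjusted p = 0.000191) and 1.47-fold at 48 h (log2 -0.56, SE 0.17, adjusted p = 0.0342). At 24 h its difference was log2 0.17, with overlapping groups, and the effect differed between the hours (F test adjusted p = 0.00798). The 72 h call held without any 1 array, while the 48 h call was lost without each of the 4 arrays in turn (adjusted p = 0.0659 to 0.19). Against control 0 h used for all hours, the average difference of EIF3K was log2 -0.36 (adjusted p = 0.0919).

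EIF3B, a core subunit that helps to hold the complex together, fell 1.56-fold at 48 h (log2 -0.64, SE 0.12, adjusted p = 0.00248) and 1.47-fold at 72 h (log2 -0.56, SE 0.12, adjusted p = 0.00347). Its intensity in induced cells was 11947 and 14026 at 12 h, 10394 and 9639.8 at 24 h, 6279 and 5791 at 48 h and 5684 and 5819 at 72 h. Its intensity in control cells was 7916 and 8196 at 0 h, 11952 and 11735 at 24 h, 9591 and 9235 at 48 h and 8452 and 8461 at 72 h. The induced arrays were below the controls at each of the 3 shared hours, but the controls of 24 h stood above those of 0 h. Against control 0 h used for all hours, the average difference was log2 -0.20 and not called (adjusted p = 0.205), beside log2 -0.48, SE 0.070, adjusted p = 0.000163 in the same-time contrast. Without any 1 array the 48 and 72 h calls held.

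EIF3D, a subunit that can itself bind the cap of some mRNAs, fell 1.37-fold at 72 h (log2 -0.46, SE 0.12, adjusted p = 0.00956). Induced cells gave 12769 and 11994 at 12 h, 11748 and 11095 at 24 h, 11086 and 11421 at 48 h and 9963 and 10582 at 72 h. Control cells gave 14713 and 15252 at 0 h, 13004 and 11249 at 24 h, 13468 and 12783 at 48 h and 14304 and 13858 at 72 h. The induced arrays lay below both controls at 48 and 72 h. EIF3F fell 1.52-fold at 72 h (log2 -0.61, SE 0.14, adjusted p = 0.00458), with 8382 and 7469.5 in induced and 11724 and 12377 in control cells, while at 48 h its groups overlapped (log2 0.03). EIF3I had a called fall at 72 h in both of its probe sets, at log2 -0.58 (adjusted p = 0.034) and -0.64 (adjusted p = 0.0332). EIF3M followed another course, with a fall at 48 h (log2 -0.71, SE 0.19, adjusted p = 0.0186) and log2 -0.38 at 72 h (adjusted p = 0.158), where 1 induced array lay between the controls. The average call of EIF3M was lost without 9 of 12 arrays in turn (adjusted p up to 0.124) and after quantile normalization. The calls of EIF3M at 48 h and of 32230_at for EIF3I at 72 h were lost without each of 4 arrays in turn (adjusted p = 0.0799 to 0.0992 and 0.0636 to 0.164). Those of 1644_at for EIF3I (3 of 4 arrays, adjusted p up to 0.213) and EIF3D (2 of 4, up to 0.0505) were lost without some of them, and that of EIF3F held without any 1 array. EIF3A, EIF3E, EIF3G, EIF3H and EIF3J were not called, with differences at 72 h between log2 -0.62 for EIF3A and -0.03 for EIF3J.

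**Figure D3:**
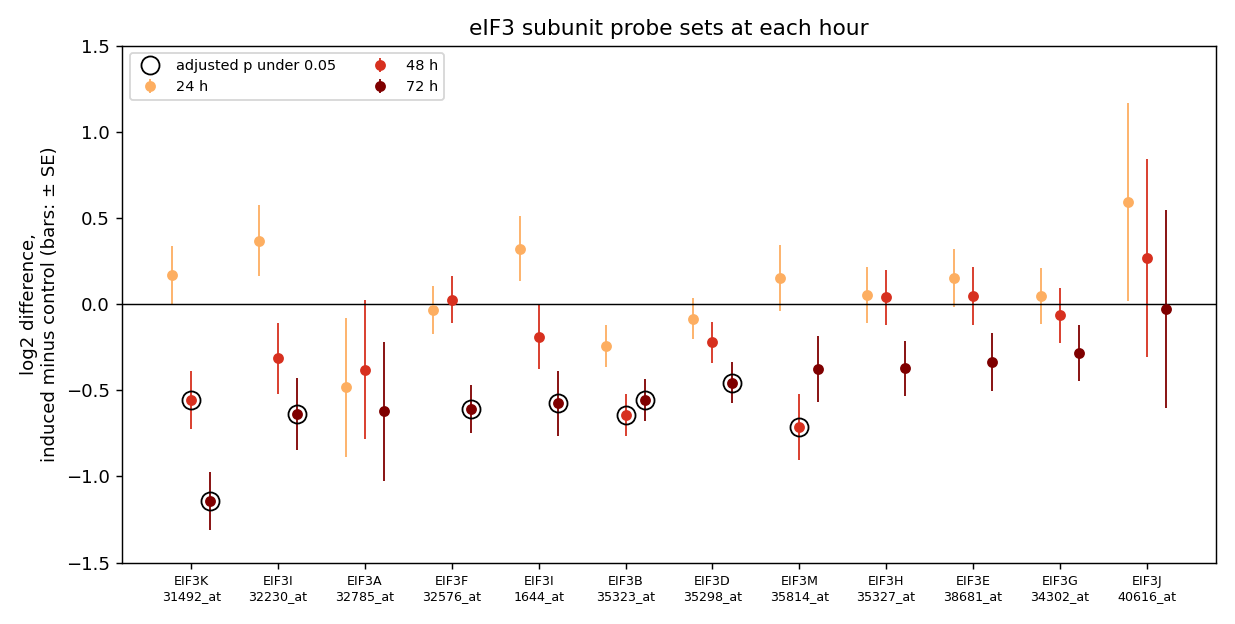
The log2 difference of induced minus control cells is plotted with its SE for the 12 eIF3 probe sets at 24, 48 and 72 h, and rings mark an adjusted p under 0.05. At 72 h all 12 points lie below 0, and EIF3K lies lowest at log2 -1.14.

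Among the 19 probe sets for factors of start codon choice and initiator tRNA, 4 fell and 1 rose on average. All tested probe sets had 13.4% falls and 18.5% rises on average. At 72 h, 4 fell and 1 rose, against 13.9% falls and 16.1% rises of all, and at 48 h, 2 fell and 1 rose, against 8.68% and 10.5%. Median centring gave 8 falls and 1 rise on average and 8 falls and 0 rises at 72 h, and quantile normalization 7 falls and 1 rise at 72 h. With no filter there were 2 falls on average and 2 at 72 h. Their median differences were log2 0.01, -0.35 and -0.60 at 24, 48 and 72 h.

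EIF1, which guards against initiation at wrong codons, was the rise. In induced cells it read 3721 and 2465 at 12 h, 3522 and 2801 at 24 h, 5726 and 4894 at 48 h and 6797 and 4906 at 72 h. In control cells it read 3452 and 3630.5 at 0 h, 2245 and 3149 at 24 h, 3039.9 and 2870.3 at 48 h and 3047 and 3789 at 72 h. The induced arrays were above both controls at 48 and 72 h, and overlapped them at 24 h. EIF1 rose 1.79-fold at 48 h (log2 0.84, SE 0.24, adjusted p = 0.0255) and 1.70-fold at 72 h (log2 0.77, SE 0.24, adjusted p = 0.0274). The average call held without any 1 array, but was lost against control 0 h (log2 0.37, adjusted p = 0.225). The 48 h call was lost without each of the 4 arrays (adjusted p = 0.0621 to 0.147), and the 72 h call without replicate 1 of the induced arrays (adjusted p = 0.202) or of the controls (adjusted p = 0.183). After median centring neither hour's call remained. EIF1B, its close paralogue, had an average difference of log2 0.52 that was not called (adjusted p = 0.0967).

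EIF2S1 encodes the alpha subunit of eIF2, whose phosphorylation lowers initiation under stress, and its 2 probe sets pointed in opposite directions at 72 h. The values that follow are of 1154_at. The induced arrays read 5077 and 3742 at 12 h, 4400.3 and 4137 at 24 h, 1146 and 2063 at 48 h and 1435 and 1371 at 72 h. The control arrays read 2889 and 2917 at 0 h, 3517 and 3327 at 24 h, 3280.3 and 3194 at 48 h and 3205 and 3425 at 72 h. The induced arrays stood above both controls at 24 h and below every control array at 48 and 72 h. By 1154_at the gene fell 2.11-fold at 48 h (log2 -1.07, SE 0.23, adjusted p = 0.00588) and 2.36-fold at 72 h (log2 -1.24, SE 0.23, adjusted p = 0.00122). Its effect differed between the hours (F test adjusted p = 0.0116). The 48 h call was lost without replicate 1 of the induced arrays (log2 -0.65, adjusted p = 0.0599), and the average call against control 0 h (log2 -0.47, adjusted p = 0.113). At 48 h the other probe set, 39784_at, lay the same way, with 1252 and 1260.1 in induced cells, against 1536 and 1545 in control cells (log2 -0.29, adjusted p = 0.428). It read 1874 and 1425 in induced cells at 72 h, against 1000.1 and 1251 in control cells, which is log2 0.55 in the opposite direction and not called (adjusted p = 0.0869). So the direction for EIF2S1 at 72 h depends on the probe set.

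EIF2S3, the gamma subunit, which carries the GTP and the tRNA, was called by 35934_at. Its intensity in induced cells was 5053 and 3844 at 12 h, 5523 and 6458 at 24 h, 6588 and 3878 at 48 h and 5091 and 4012 at 72 h. Its intensity in control cells was 7025 and 9443 at 0 h, 6048 and 6085 at 24 h, 7622 and 6030.0 at 48 h and 7420.1 and 9863 at 72 h. The groups did not overlap at 72 h and overlapped at 48 h. EIF2S3 fell 1.89-fold at 72 h (log2 -0.92, SE 0.25, adjusted p = 0.0144), and the second probe set, 1272_at, lay at log2 -0.72 without a call (adjusted p = 0.151). The call was lost without replicate 2 of the induced arrays (adjusted p = 0.119) or of the controls (adjusted p = 0.117), and the average call without 7 of 12 arrays in turn. EIF2S2, the beta subunit, lay below the controls on all 4 induced arrays of 48 and 72 h, with log2 -0.47 at 72 h and no call (adjusted p = 0.102). EIF2B2, EIF2B4 and EIF2B5 of the exchange factor that reloads eIF2 with GTP were not called, with average differences of log2 -0.19, -0.01 and 0.02. EIF2A, which can deliver tRNA by another route, was at 310.3 and 173 in induced and 382 and 546 in control cells at 72 h (adjusted p = 0.2).

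EIF5, which prompts eIF2 to hydrolyse its GTP at the start codon, fell 1.94-fold at 48 h by 167_at (log2 -0.95, SE 0.26, adjusted p = 0.022). Induced cells gave 2918 and 2669 at 12 h, 3343 and 3758 at 24 h, 2059.7 and 1742 at 48 h and 2471 and 1909 at 72 h. Control cells gave 1241 and 2549 at 0 h, 4149 and 3986 at 24 h, 3791 and 3556 at 48 h and 3218 and 3369.9 at 72 h. The induced arrays lay below both controls at 48 and 72 h. The 48 h call was lost without each of the 4 arrays (adjusted p = 0.0561 to 0.135). Against the 0 h controls, which lay below all later controls, the average difference turned to log2 0.46 (adjusted p = 0.173), beside log2 -0.58, SE 0.15, adjusted p = 0.00959 in the same-time contrast. The second probe set, 32171_at, had log2 -0.64 at 48 h (adjusted p = 0.113) and 0.11 at 72 h.

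EIF1AX, which binds with eIF1 to the small subunit, fell at 72 h in 2 of 3 probe sets, by 663_at (log2 -0.72, adjusted p = 0.0173) and 34278_at (log2 -0.64, adjusted p = 0.0306). In induced cells 663_at read 7440.5 and 8627 at 12 h, 7866 and 8396 at 24 h, 4806 and 5350.2 at 48 h and 4917 and 3548 at 72 h. In control cells 663_at read 7559.9 and 4905 at 0 h, 7148 and 5886 at 24 h, 7161 and 7849 at 48 h and 7067 and 6705 at 72 h. The 4 induced arrays of 48 and 72 h lay below the 4 controls of those hours for 663_at. Both calls were lost without 3 of the 4 arrays in turn (adjusted p up to 0.17 and 0.313). EIF5B, which joins the ribosomal subunits, was called on average by 1 of 3 probe sets, 40535_i_at (log2 -0.43, SE 0.14, adjusted p = 0.0325). The induced arrays read 2798 and 3110.2 at 12 h, 2479 and 1842 at 24 h, 1336 and 1455 at 48 h and 1024 and 1118 at 72 h. The control arrays read 1996 and 1913 at 0 h, 2004 and 2484 at 24 h, 2081 and 2137 at 48 h and 2120.2 and 1283 at 72 h. The induced arrays lay below both controls at 48 and 72 h and overlapped them at 24 h. At no single hour was it called (adjusted p = 0.11 at 48 h and 0.0694 at 72 h). Without 7 of 12 arrays in turn the average call was lost (adjusted p up to 0.102), as it was against control 0 h.

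**Figure D4:**
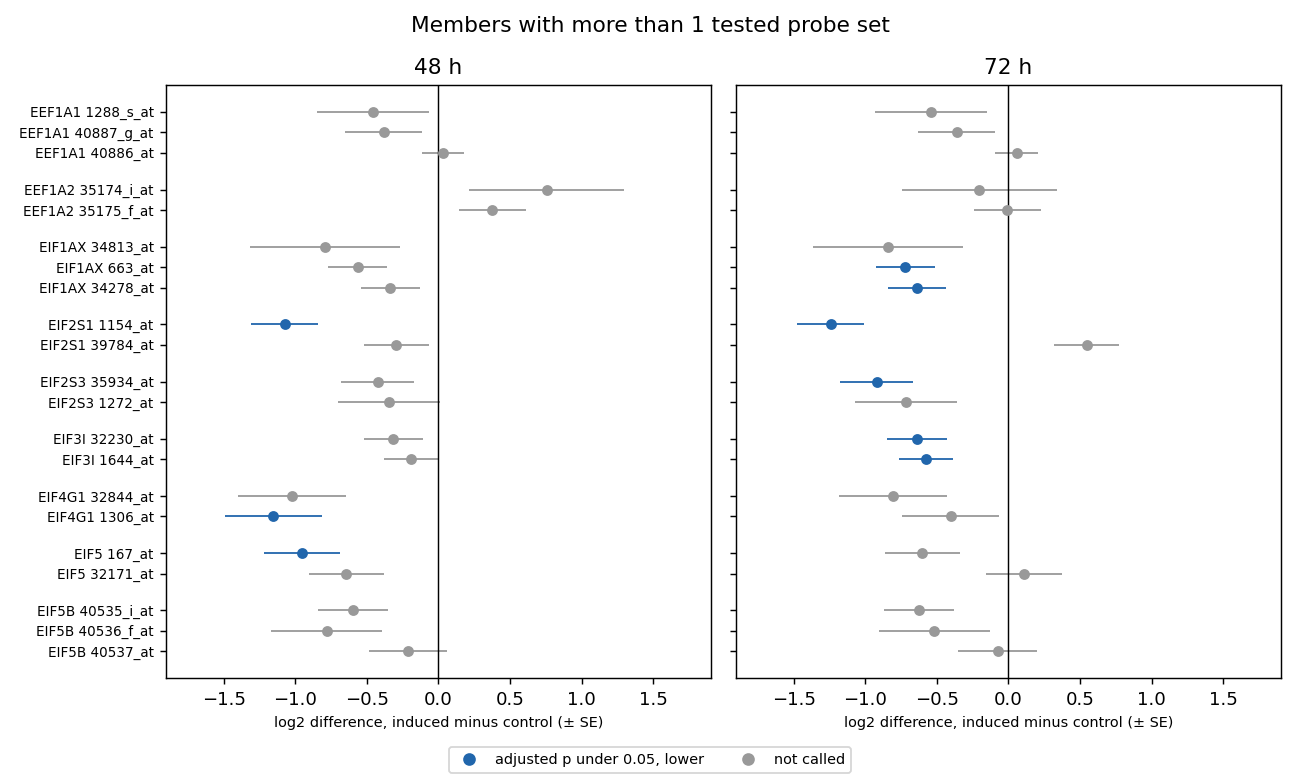
The log2 difference of induced minus control cells with its SE is plotted at 48 and 72 h for the 9 genes with more than 1 tested probe set. The EIF2S1 probe sets lie on opposite sides of 0 at 72 h, whereas both EIF3I probe sets are called lower.

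The elongation factors showed no called change. Of 8 probe sets for the elongation factors and EEF1AKMT3, which methylates eEF1A, limma called 0 on average and 0 at each hour, while 3 on average, 0 at 24 h, 0 at 48 h and 1 at 72 h had an unadjusted p under 0.05. Of all probe sets, 41.7% on average, 5.07% at 24 h, 30.5% at 48 h and 40.03% at 72 h had such a p. With the replicate block 1 was called at 72 h, and after quantile normalization or median centring 1 was called on average. EEF2, which moves the ribosome along the mRNA, read 16099 and 22009 in induced cells at 72 h, against 20285 and 16394 in control cells (log2 0.05, SE 0.17, adjusted p = 0.872). EEF1A1, which brings aminoacyl-tRNA to the ribosome, read 22038 and 30239.7 in induced cells at 72 h by 40886_at, against 26444 and 23291 in control cells (log2 0.06, SE 0.15, adjusted p = 0.812). The other EEF1A1 probe sets, 1288_s_at and 40887_g_at, had log2 -0.54 (adjusted p = 0.331) and -0.36 (adjusted p = 0.342) at 72 h. At that hour 1288_s_at read 4836 and 13745 in induced cells, against 17215 and 8140 in control cells. The average differences of 1288_s_at and 40887_g_at were log2 -0.49 (adjusted p = 0.115) and -0.38 (adjusted p = 0.0771), beside 0.01 for 40886_at. EEF1A1 has many near-identical processed copies and a close paralogue in EEF1A2, so signals of these probe sets may be shared. EEF1D, a part of the exchange factor for eEF1A, had log2 -0.38 at 72 h (adjusted p = 0.103).

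EIF5A, which helps the ribosome through stalling sequences and carries the amino acid hypusine, read 1209 and 2421 in induced cells at 72 h, against 3755 and 3857 in control cells. Its groups did not overlap, but the difference missed the threshold (log2 -1.15, SE 0.42, adjusted p = 0.0545). The probe set named for EIF5AL1, a near-identical copy of EIF5A, had log2 0.13 at that hour (adjusted p = 0.871). EIF6, which keeps the large ribosomal subunit from joining too early, was not called at any hour (average log2 -0.20, adjusted p = 0.252).

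At 12 h induced cells can be set only against control cells of 0 h, so time in culture and induction cannot be told apart. There 2 of 52 members rose and 0 fell, 3.85%, against 3.28% of all probe sets (1.16% higher and 2.12% lower). An unadjusted p under 0.05 in limma was found for 20 members, 38.5%, against 20.7% of all probe sets. After median centring 9.62% of the members were called, against 3.85% of all, and without the mean-variance trend 0%, against 1.97%. EIF3B read 11947 and 14026 in induced cells at 12 h, against 7916 and 8196 in control cells at 0 h (log2 0.68, SE 0.12, adjusted p = 0.0107). Control arrays of 24 h also stood above those of 0 h, at 11952 and 11735, a difference that was not called (log2 0.56, adjusted p = 0.0667). EIF4E2 rose 1.71-fold (log2 0.77, SE 0.19, adjusted p = 0.0471), and its 24 h controls likewise lay above those of 0 h without a call (log2 0.61, adjusted p = 0.169). Leaving out 1 of the 4 arrays left 0 or 1 of these rises.

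In control cells, limma called 0 of 52 members at 24, 48 or 72 h against 0 h, beside 0.498% (0.166% higher, 0.332% lower), 0.0128% (all higher) and 0.0383% (0.0128% higher, 0.0256% lower) of all probe sets, while 13, 6 and 3 members had an unadjusted p under 0.05. These are 25.0%, 11.5% and 5.77% of the members, against 13.4%, 8.95% and 7.43% of all probe sets. The largest control differences at 24 h were those of EIF5 by 167_at (log2 1.19, adjusted p = 0.0667) and of EEF1A2 by 35174_i_at (log2 -1.22, adjusted p = 0.341). With 2 arrays on each side, their number limits the precision of these comparisons.

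Other genes of translation control were taken from a list of 51, of which 30 were tested by 41 probe sets. On average 14 of these probe sets fell and 3 rose, 41.5%, against 31.9% of all, and 4 of the 14 belong to MYC. At 72 h 14 fell and 4 rose, 43.9%, against 30.01% of all (13.9% lower and 16.1% higher). The list was chosen with earlier results of these data known, so no difference from the whole array is read from these shares. In termination and recycling, GSPT1, which encodes the release factor eRF3a, fell 1.96-fold at 72 h (log2 -0.97, SE 0.19, adjusted p = 0.00174). ABCE1, which splits ribosomes after termination, fell 2.63-fold (log2 -1.39, SE 0.32, adjusted p = 0.00456), while ETF1, the release factor eRF1, was not called (adjusted p = 0.111). PABPC1, the main poly(A)-binding protein, was not called by either probe set at 72 h (adjusted p = 0.143 and 0.95).

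In the mTORC1 pathway, which controls the eIF4E-binding proteins, DDIT4 read 347 and 139.6 in induced cells at 72 h, against 4613 and 5209.7 in control cells. DDIT4 inhibits mTORC1, and it fell 22.3-fold by 39827_at (log2 -4.48, SE 0.41, adjusted p = 4.34e-06). The lower of the induced values stood near the floor of 135.61, so the size of this fold is imprecise. The second DDIT4 probe set, 39826_f_at, did not pass the filter on low values. TSC2, another inhibitor of mTORC1, rose 2.10-fold (log2 1.07, SE 0.22, adjusted p = 0.00247), with 2499 and 2797 in induced and 1153 and 1373 in control cells. AKT1, a kinase that acts upstream of TSC2, fell 3.32-fold (log2 -1.73, SE 0.24, adjusted p = 9.97e-05). RPS6KB1 was called higher at 72 h by 2037_s_at (log2 0.87, adjusted p = 0.0348), but not by 37946_at (log2 0.20, adjusted p = 0.768). RPS6 was called lower at 72 h (log2 -0.56, adjusted p = 0.0297). MTOR was not called by either probe set (adjusted p = 0.971 and 0.691 at 72 h). Changes in the genes of this pathway thus went both ways, and arrays measure the mRNAs, not the activity of the pathway.

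Around eIF2, PPP1R15A, the stress-induced subunit of the phosphatase that reverses eIF2 phosphorylation, rose 5.49-fold at 48 h (log2 2.46, SE 0.72, adjusted p = 0.0295). At 72 h it rose 4.46-fold (adjusted p = 0.0373). It read 2603 and 2084 in induced cells at 48 h, against 609 and 295 in control cells, but controls of 0 h read 2257 and 370. EIF2AK2, the kinase PKR, rose 2.80-fold at 72 h by 38662_at (log2 1.49, SE 0.30, adjusted p = 0.00188), and its second probe set, 1008_f_at, was not called (adjusted p = 0.739). ATF4, the transcription factor translated when eIF2 is phosphorylated, had log2 -0.51 at 72 h, a called fall (adjusted p = 0.031). DDIT3 read 1627 and 1078 by 39420_at in control cells at 72 h and was below 0 in induced cells at that hour, and also on all arrays of 24 and 48 h, so the called difference at 72 h rests on the level of the controls. Controls of 0 h read 967 and 565 by 39420_at. The second probe set, 1842_at, was also called lower at 72 h (log2 -2.53, adjusted p = 7.18e-05), with 643 and 952 in control cells. Its controls of 0 h read 99.6 and -137, so the probe sets differ at 0 h. MYC, a transcription factor known to raise many translation genes, fell by all 4 probe sets at 72 h, with log2 values between -4.44 and -2.67. TUFM, the mitochondrial elongation factor, fell 1.99-fold at 72 h (log2 -0.995, SE 0.12, adjusted p = 4.53e-05). DPH2, an enzyme that makes the diphthamide of eEF2, fell 4.74-fold at 48 h (log2 -2.25, SE 0.26, adjusted p = 6.76e-05) and 1.66-fold at 72 h (log2 -0.73, adjusted p = 0.0458). Controls of DPH2 read 955 and 974 at 0 h, against 1581 and 2206 at 48 h.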

How the data were processed

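The series holds 16 Affymetrix U95Av2 arrays of U937 cells, grouped by their titles into 8 groups of 2. The authors deposited linear intensity values, 1 per probe set and array, with a scale factor per array in the labels' characteristics. Which software summarised the probes is not stated there. The means of all 16 arrays were equal at 1370.9, and 25.8% of values were below 0.

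Values under the 40th percentile of all values (135.61) were raised to it before log2. Testing required 2 or more arrays above the overall median (292.74), and 67 control probe sets were left out. Symbols came from the platform annotation of the series, which can be old. With limma 3.58.1 in R 4.3.3, group means were fitted for 7824 probe sets (eBayes with a mean-variance trend, 8 residual degrees of freedom, two-sided tests). The fit was checked on simulated data. Values of every array are given for up to 12 members of smallest adjusted p whose effects shared a sign at all 3 hours, up to 4 others called at 48 or 72 h and the 3 leading F tests. Any member could be named, and of other genes those of the pathway list. The members and lists were chosen with earlier results of these data known. Alternatives were other floors, filters, scalings and variance settings, a replicate block, control 0 h for all hours, and each array left out.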

Additional observations from a re-analysis of the deposited data

Results flagged for a closer look

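For 3 members the effect differed between 24, 48 and 72 h by the F test of limma, 5.77% of the 52, against 10.9% of all tested probe sets. EIF4EBP1 had differences of log2 -0.23, -1.71 and -2.32 (F test adjusted p = 0.00159). EIF3K had log2 0.17, -0.56 and -1.14 (F test adjusted p = 0.00798). EIF2S1 by 1154_at had log2 0.32, -1.07 and -1.24 (F test adjusted p = 0.0116), and its other probe set was not called by this test (adjusted p = 0.218). In all 3 the 72 h effect lay below the 24 h effect. EIF4EBP1 and EIF3K were measured by 1 probe set each.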

How the results depend on the processing

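On average over the hours, 9 members were lower and 2 higher. Median centring gave 19 lower, while leaving out 1 array gave 6 to 12 lower and 2 or 3 higher. With control 0 h for all hours 7 members were called, 1 of them higher. That is 13.5% of the members, against 17.5% of all probe sets. The average calls of EIF1, EIF2S1, EIF3B, EIF3K and EIF5B were lost with control 0 h. At 48 h, 7 lower became 3 with no filter and 4 without the variance trend, and 3 to 4 without 1 array. The 1 rise of 48 h became 0 with no filter, without the trend, after median centring and without any 1 array. At 72 h, 11 lower became 7 with no filter and 7 without the trend, and 7 to 11 without 1 array. The 2 rises of 72 h became 1 after median centring and without the trend, and 1 to 2 without 1 array. In either direction, 16 members were called at 72 h after median centring and 16 after quantile normalization, against 13 in the main fit. At 12 h, 2 rises became 5 after median centring, 0 without the trend and 0 to 1 without 1 array, and 0 falls became 1 with the filter on the mean, quantile normalization or the replicate block, and 0 to 1 without 1 array. In controls, 0 rises became 1 at 24 h with the 50th percentile floor or no filter, and 0 to 1 at 24, 48 and 72 h without 1 array. The 3 members whose effect differed between hours became 5 after quantile normalization and 2 to 6 without 1 array. The main fit did not pair the samples by replicate number. Differences between replicates correlated between groups at r = -0.15 to 0.25, over 0.1 in 7 of 28 pairs of groups, which does not settle whether some groups were paired. The replicate block gave 2 higher and 9 lower members on average, 1 and 7 at 48 h, 2 and 12 at 72 h and 0 at 24 h. The one count over all 52 members that moved by over 1.5 times with the block was that of falls at 12 h, which went from 0 to 1. EIF5 by 167_at reversed against control 0 h, to log2 0.46. Of 483 recomputed values of the 32 called member effects, 386 kept their call and direction, 96 lost the call and 1 reversed. No called member had a floored value. Other floors and filters, no variance trend and the replicate block could thus change their adjusted p but not their direction. The cause of the shifts between settings was not tested. With no filter there were also more tests, and with 1 array left out there were fewer arrays.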
